A study of Mus musculus with 25 samples.

Results

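The genes described here are a set of 8 mouse transcripts used as markers of macrophages, namely Cd163, Cd14, Adgre1, Msr1, Cd68, Csf1r, Ccl2 and Retnla. Members were found by matching each probe's gene symbol in the platform annotation, updated by Entrez identifier, to that list (Adgre1 was formerly Emr1). Of the 8 genes, 6 had a probe, 1 probe each, out of 13832 genes named on the array. Of its 32996 probes, 14401 carried 1 gene symbol, 247 several and 18348 none, and only probes with 1 symbol were used by name. Cd68 and Csf1r were matched by no named probe and were not analysed here. The matched genes lie on chromosomes 6 (Cd163), 18 (Cd14), 17 (Adgre1), 8 (Msr1), 11 (Ccl2) and 16 (Retnla), none of them on chromosome 7, where the marker that names the congenic strain lies.

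The arrays came from 2 strains of mice and 4 tissues. B6.C-D7Mit353, called congenic below, carries the labels lean and homozygote, and in mouse nomenclature its name stands for a C57BL/6J mouse that carries a segment from BALB/c marked by D7Mit353. C57BL/6J, called B6 below, is the background strain, and neither strain was labelled with a treatment. Brain, liver, gonadal white adipose tissue (gonadal fat) and gastrocnemius muscle were each read in 3 congenic and 3 B6 mice, 24 arrays in the comparisons, and several animals gave more than 1 of the last 3 tissues. The sources used here state no age, sex or diet and do not give the extent of the congenic segment. An additional congenic brain array, replicate 2, lies outside the triplicate that the design names and was used in alternatives only.

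Macrophages are phagocytes found in nearly every tissue, and each organ holds its own resident population: Kupffer cells in liver, microglia in brain, and perivascular and interstitial macrophages in fat and muscle. Cd163 takes up haemoglobin bound to haptoglobin, Msr1 (scavenger receptor A) takes up modified lipoproteins, Cd14 presents bacterial lipopolysaccharide to toll-like receptor 4, and Adgre1 encodes F4/80, the classical surface marker of mouse macrophages. Ccl2 is a chemokine that draws monocytes from blood into tissue, and Retnla encodes a secreted resistin-like protein (RELM alpha) that is induced in alternatively activated macrophages by interleukin 4 through the transcription factor STAT6. In obese mice, macrophages gather in gonadal fat, which is why such genes are followed in studies of adiposity.

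The promoters of Retnla and Cd163 are shown because these genes had the widest spread between tissues of the 6 and the only groups of the 2 strains that did not overlap. The 250 bases before each start site were taken from RefSeq in the GRCm38.p6 build, at chr16:48842359-48842608 (plus strand) for Retnla and chr6:124304401-124304650 (plus strand) for Cd163. Capitals mark every match on either strand to 4 motifs, which are the PU.1 core GAGGAA, the C/EBP motif TTGCNNAA, the STAT6 motif TTCNNNNGAA and the TATA box TATAAA.
Retnla: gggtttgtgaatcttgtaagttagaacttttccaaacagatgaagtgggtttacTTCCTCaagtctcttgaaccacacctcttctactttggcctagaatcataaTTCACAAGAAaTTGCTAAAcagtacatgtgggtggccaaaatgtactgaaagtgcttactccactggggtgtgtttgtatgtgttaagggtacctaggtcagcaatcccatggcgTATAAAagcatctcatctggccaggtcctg
Cd163: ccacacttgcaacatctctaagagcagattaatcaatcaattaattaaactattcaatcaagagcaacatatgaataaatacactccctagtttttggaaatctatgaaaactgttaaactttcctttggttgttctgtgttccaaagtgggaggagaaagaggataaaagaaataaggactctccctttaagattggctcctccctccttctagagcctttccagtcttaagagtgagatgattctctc
In Retnla the minus-strand PU.1 core lay 196 to 191 bases before the start, the STAT6 motif 145 to 136 bases before, the C/EBP motif 134 to 127 bases before and the TATA box 30 to 25 bases before. The STAT6 and C/EBP matches were next to each other and did not overlap. Among 32851 promoter windows of the same length, 23.3% held the PU.1 core, 9.56% the C/EBP motif, 5.85% the STAT6 motif and 12.4% the TATA box, and 0.609% held both the STAT6 and the C/EBP motif. None of the 4 motifs was found in the Cd163 window, which says only that these letters are not there. A match is a description of the sequence and not evidence of binding.

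Levels are given as log2 of the array Signal after background correction and quantile normalization of the 24 arrays, and a probe was called detected where its signal to noise ratio (S/N) was at least 3. Between 39.7% and 55.3% of probes were detected per array. Tissue markers were highest in the tissue of the label: Alb (albumin) at 21.40 in liver, Acta1 (skeletal actin) at 21.08 in gastrocnemius, Nefl (neurofilament) at 17.43 in brain and Cidec (a lipid droplet protein) at 16.83 in gonadal fat. Nefl was detected on no array of the other tissues, while Alb was also detected on 5 of 6 fat arrays (10.37), and Acta1 on all 6 fat (15.48) and all 6 brain arrays (13.30). The probes of Snap25, detected on none of the 6 brain arrays, and of Cd4, at 19.30 in liver, go against their names, and the names of the members' single probes could not be checked in the same way. Some arrays stood apart by genes of other organs: on congenic liver replicate 2 the summed level of 6 pancreatic genes was 21.25, against 12.07 to 16.14 on the other 5 livers, and in gonadal fat the summed level of 7 epididymal genes ran from 14.07 on congenic replicate 1 to 22.20 on congenic replicate 2. For Retnla, Cd163, Cd14 and Adgre1, no tissue call changed when congenic liver replicate 2 or congenic fat replicate 1 or 2 was left out. With any single array left out, liver minus fat for Retnla ran from -8.00 to -7.48.

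Retnla had the steepest gradient between tissues. In gonadal fat the 3 congenic arrays read 19.12, 17.02 and 18.20 and the 3 B6 arrays 18.01, 16.59 and 17.12. In gastrocnemius the congenic arrays read 15.95, 15.90 and 15.17 and the B6 arrays 15.44, 14.63 and 14.41. In liver the congenic arrays read 9.91, 11.18 and 9.36 and the B6 arrays 9.28, 9.64 and 10.50. Every fat array thus lay above every gastrocnemius array, and every gastrocnemius array above every liver array. In brain the congenic arrays read 7.32, 7.31 and 8.04, none of them detected, and the B6 arrays 9.75, 9.35 and 9.08, all detected. The fat level was 5.49-fold that of gastrocnemius (log2 difference 2.46 ± 0.35 SE, adjusted p = 2.65e-06), 212-fold that of liver (liver minus fat -7.73 ± 0.35, adjusted p = 5.39e-15) and 595-fold that of brain (brain minus fat -9.22 ± 0.34, adjusted p = 2.32e-16). Gastrocnemius exceeded liver 38.6-fold (liver minus gastrocnemius -5.27 ± 0.35, adjusted p = 4.42e-12). Liver exceeded brain 2.81-fold (adjusted p = 0.000561), but among B6 arrays alone brain minus liver was -0.41 and was not called (adjusted p = 0.37). These tests are from limma with Benjamini-Hochberg adjustment over all 21516 probes tested, and folds are on the normalized scale. In bulk tissue, fewer cells of a type and less RNA per cell cannot be told apart.

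**Figure D1:**
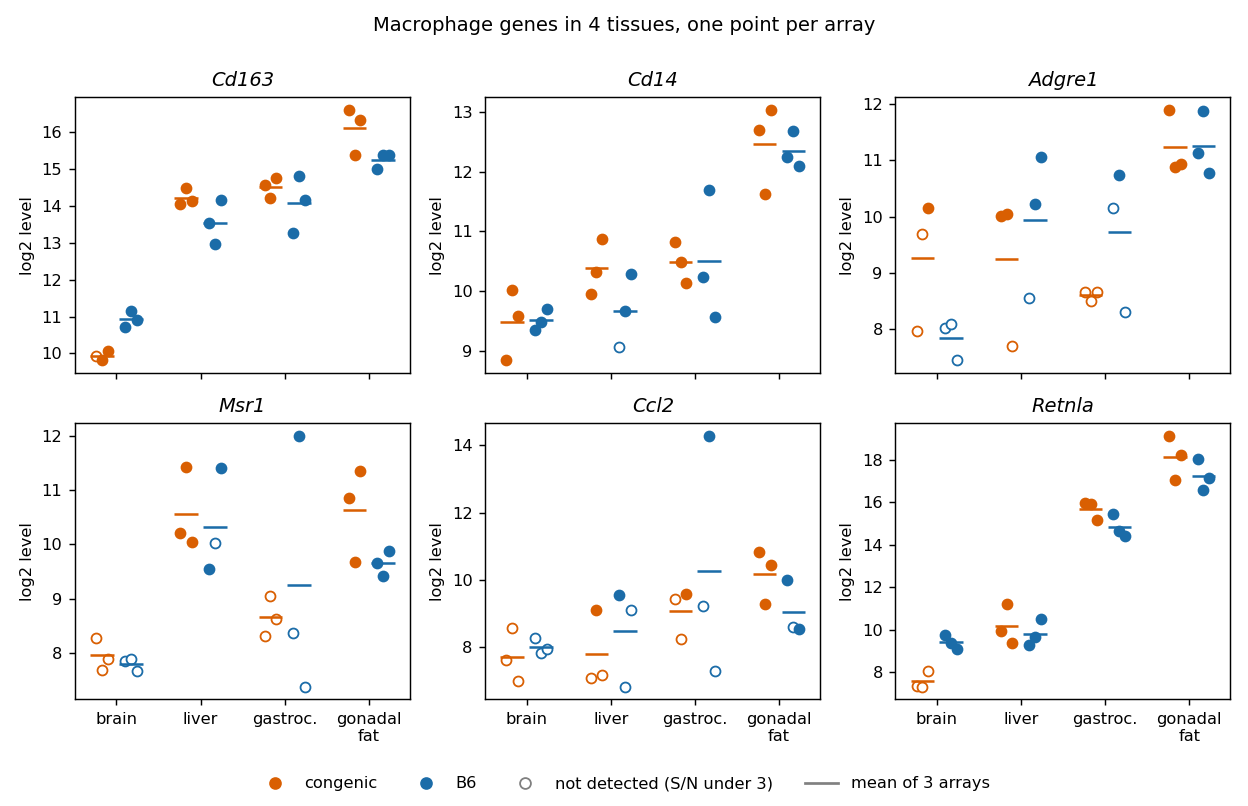
Log2 level of the 6 measured macrophage genes (y axis) in brain, liver, gastrocnemius and gonadal fat (x axis), with 1 point per array, congenic in orange and B6 in blue. Open points were not detected (S/N under 3) and horizontal lines are means of 3 arrays; Retnla runs from 7.31 in brain to 19.12 in gonadal fat, and 1 B6 gastrocnemius array stands at 14.28 for Ccl2.

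Cd163, the haemoglobin scavenger, was found in all 4 tissues. In gonadal fat the congenic arrays read 16.61, 15.37 and 16.32 and the B6 arrays 15.00, 15.39 and 15.38. In gastrocnemius the congenic arrays read 14.56, 14.22 and 14.75 and the B6 arrays 13.28, 14.81 and 14.15. Fat arrays did not overlap with those of any other tissue. In liver the congenic arrays read 14.06, 14.48 and 14.13 and the B6 arrays 13.53, 12.96 and 14.16. In brain the congenic arrays read 9.93, 9.81 and 10.08 and the B6 arrays 10.73, 11.15 and 10.90, all but 1 congenic array detected. The means were thus 10.43 ± 0.56 (SD, n = 6) in brain, 13.89 ± 0.55 in liver, 14.29 ± 0.57 in gastrocnemius and 15.68 ± 0.63 in gonadal fat. Fat exceeded gastrocnemius 2.61-fold (1.38 ± 0.24 SE on the log2 scale, adjusted p = 4.11e-05), liver 3.48-fold (adjusted p = 1.22e-06) and brain 37.9-fold (adjusted p = 6.45e-15). Liver and gastrocnemius overlapped and did not differ past the threshold (liver minus gastrocnemius -0.42, 95% interval -0.92 to 0.08, adjusted p = 0.161), although without B6 gastrocnemius replicate 1 the difference was -0.62 and was called (adjusted p = 0.0266). Brain was 10.9-fold below liver (adjusted p = 5.65e-12).

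Cd14, the lipopolysaccharide co-receptor, was highest in gonadal fat at 12.40 ± 0.51 (SD, n = 6, range 11.63 to 13.04). Gastrocnemius stood at 10.49 ± 0.72 (9.56 to 11.70), liver at 10.03 ± 0.62 (9.06 to 10.88) and brain at 9.49 ± 0.39 (8.84 to 10.02). Only the highest gastrocnemius array, B6 replicate 2, reached into the range of fat. Fat exceeded gastrocnemius 3.81-fold (adjusted p = 6.12e-05), liver 5.30-fold (adjusted p = 3.59e-06) and brain 7.57-fold (adjusted p = 9.5e-08). Gastrocnemius exceeded brain 1.99-fold (adjusted p = 0.0155), a call that was lost without B6 gastrocnemius replicate 2 (adjusted p = 0.0674) and without congenic brain replicate 1 (adjusted p = 0.051). It was also lost among B6 arrays alone (adjusted p = 0.0974) and among congenic arrays alone (adjusted p = 0.0787). Liver did not differ past the threshold from gastrocnemius (-0.48, 95% interval -1.20 to 0.24) or from brain (brain minus liver -0.51, 95% interval -1.22 to 0.19).

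Adgre1, the gene of F4/80, was detected on every fat array and on few others. Its mean was 11.25 ± 0.51 (SD, n = 6) in gonadal fat. It was 9.60 ± 1.23 in liver with 4 of 6 arrays detected, 9.16 ± 1.01 in gastrocnemius with 1 of 6 and 8.56 ± 1.09 in brain with 1 of 6. The 1 gastrocnemius array that detected it was again B6 replicate 2. Fat exceeded liver 3.30-fold (adjusted p = 0.00756), gastrocnemius 4.41-fold (adjusted p = 0.00127) and brain 6.64-fold (adjusted p = 6.09e-05). Among B6 arrays alone the excess over liver (adjusted p = 0.124) and over gastrocnemius (adjusted p = 0.0752) missed the threshold. Levels in brain, liver and gastrocnemius overlapped and did not differ past the threshold in any pair. That too rested on the arrays used, since among B6 arrays alone brain was called lower than liver (-2.13, adjusted p = 0.0139) and than gastrocnemius (-1.92, adjusted p = 0.0264), and brain minus liver was also called with median scaling (-1.21, adjusted p = 0.0276).

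Msr1, scavenger receptor A, was the one member with a liver mean above its fat mean. Liver stood at 10.44 ± 0.79 (SD, n = 6, 5 detected, range 9.54 to 11.43) and fat at 10.14 ± 0.78 (6 detected, range 9.42 to 11.35). The difference of 0.22 on the log2 scale had a 95% interval of -0.91 to 1.36 (adjusted p = 0.764), which does not show that the levels are alike. Msr1 was detected on none of the 6 brain arrays. Liver was an estimated 5.90-fold above brain (fitted brain minus liver -2.53, 95% interval -3.64 to -1.41, adjusted p = 0.00026). Fat was an estimated 4.79-fold above brain (adjusted p = 0.000784), although among B6 arrays alone brain minus fat was -1.92 and was not called (adjusted p = 0.0806). An "estimated" fold sets the brighter mean against a dim value for each array. That value is the lowest signal that counted as detected or the probe's reading, whichever was higher. Such a fold has error and is not a lower bound. In gastrocnemius 5 arrays lay between 7.38 and 9.05, none detected, and B6 replicate 2 read 11.99. Liver exceeded gastrocnemius 2.76-fold (adjusted p = 0.0294). That call was lost among B6 arrays alone (1.10, adjusted p = 0.331) and with median scaling (adjusted p = 0.0567). It was also lost when any of 5 single arrays was left out, with adjusted p up to 0.101 without B6 gastrocnemius replicate 3. Fat minus gastrocnemius was 1.24 (adjusted p = 0.0646), and without B6 gastrocnemius replicate 2 it was 1.90 and was called (adjusted p = 0.000291).

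Ccl2, the monocyte chemokine, was detected on most arrays in fat only. It was detected on 5 of 6 fat arrays (8.56 to 10.85), 2 of 6 livers (6.84 to 9.56), 2 of 6 gastrocnemius arrays and none of the 6 brain arrays (6.99 to 8.57). In gastrocnemius the congenic arrays read 9.44, 8.24 and 9.59 and the B6 arrays 9.23, 14.28 and 7.30. B6 replicate 2 thus stood 4.69 log2 units above the next gastrocnemius array. Ccl2 passed the detection filter through fat alone, which favours a higher level there. Fat exceeded brain by an estimated 3.24-fold (adjusted p = 0.0491), a call lost when any of 17 single arrays was left out. It was also lost without a detection filter (adjusted p = 0.0678) and without the intensity trend (adjusted p = 0.0631). Gastrocnemius exceeded brain by an estimated 3.38-fold (adjusted p = 0.0435), and without B6 replicate 2 brain minus gastrocnemius was -0.84 and was not called (adjusted p = 0.185). That call was lost when any of 9 single arrays was left out, without a detection filter (adjusted p = 0.0565), without the intensity trend (adjusted p = 0.057) and among congenic arrays alone (adjusted p = 0.0825). Liver minus fat was -1.53 (adjusted p = 0.106), and was called when B6 gastrocnemius replicate 2 was left out of the fit (-1.45, adjusted p = 0.0212). Fat did not exceed gastrocnemius (fat minus gastrocnemius -0.04, adjusted p = 0.971), although without that array the difference was 0.90 (adjusted p = 0.173). Liver minus gastrocnemius was -1.57 (adjusted p = 0.0973). With the deposited log2 values, which only 2 gastrocnemius arrays have for Ccl2, these 2 differences were -2.22 and -2.70.

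Counted over pairs of tissues, all 6 members were called lower in brain than in gonadal fat, where 57.9% of all probes tested were called, 30.5% lower and 27.4% higher in brain, and the arrays of the pair did not overlap for 5 members and for 39.6% of probes. In brain against liver 3 of 6 were called, all lower in brain (Cd163, Msr1 and Retnla), against 63.7% of all probes called, 29.9% lower and 33.8% higher in brain, and 2 members and 46.6% of probes did not overlap. In brain against gastrocnemius 4 of 6 were called, all lower in brain (Cd163, Cd14, Ccl2 and Retnla), against 58.9% called, 28.6% lower and 30.3% higher in brain, and 2 members and 42.9% of probes did not overlap. Without B6 gastrocnemius replicate 2 that count of calls was 2, against 57.8% of all probes called. In liver against fat 4 of 6 were called lower in liver, against 50% called, 29.2% lower and 20.8% higher in liver, and 3 members and 27.1% of probes did not overlap. In fat against gastrocnemius 4 of 6 were called higher in fat, against 50.8% called, 29.2% higher and 21.6% lower in fat, and 3 members and 27.6% of probes did not overlap. Without B6 gastrocnemius replicate 2 the count was 5. In liver against gastrocnemius 1 was called higher (Msr1) and 1 lower (Retnla), against 50.6% of all probes called, 23.6% higher and 26.9% lower, and 1 member and 33.3% of probes did not overlap. With only 6 members, 4 of 6 is close to the 50% and 50.8% of all probes called in liver against fat and fat against gastrocnemius. In brain against fat the members' share of calls lay above that of all probes. It lay below in brain against liver and liver against gastrocnemius. In brain against gastrocnemius it lay above or below with or without B6 gastrocnemius replicate 2. The median log2 difference over the 6 members was -2.83 for brain minus fat, -1.76 for liver minus fat and 1.65 for fat minus gastrocnemius, beside -0.11, -0.13 and 0.16 over all probes tested. All fat arrays lay above all arrays of the other tissues for Cd163 and Retnla, as they did for 3.01% of probes.

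Lists of genes of resident macrophages were compared in the same fit, to be read against the shares of all probes called given above. Of 6 tested genes of the Kupffer cell list, 5 were called higher in liver than in fat and 5 higher in liver than in gastrocnemius, and all 6 were lower in brain than in liver. Nr1h3, a nuclear receptor not particular to macrophages, had the highest liver mean of the list at 15.71 and was at 14.89 in fat and 13.60 in gastrocnemius. Cd5l, a protein secreted by Kupffer cells, was at 14.97 ± 0.58 (SD, n = 6) in liver and 63.4-fold lower in fat (adjusted p = 1.09e-11). Clec4f, a lectin of Kupffer cells, was at 13.91 ± 0.56 in liver and undetected on all fat arrays (an estimated 59.6-fold difference). Of 8 microglial genes, all 8 were called higher in brain than in liver, 6 higher and 1 lower in brain than in gastrocnemius, and 4 higher and 1 lower in brain than in fat, where 57.9% of all probes were called. Tmem119 was at 13.20 ± 0.23 in brain and 12.56 ± 0.22 in fat (adjusted p = 0.0822), and Gpr34 at 11.83 in brain and 11.45 in fat (adjusted p = 0.556). P2ry12, a purine receptor of microglia, was at 11.76 ± 0.52 in brain, 6.22-fold above fat (adjusted p = 2.48e-06). The summed level of the list was 14.53 to 14.99 in brain and reached 14.99 on a B6 gastrocnemius array. Each of the 6 members had its lowest mean in brain.

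Genes of perivascular and interstitial macrophages were low in brain. All 7 tested genes of that list were called lower in brain than in fat and lower in brain than in gastrocnemius, with median log2 differences of -5.10 and -4.01. In brain against liver 3 were called, all lower in brain, and in fat against gastrocnemius 2 were called higher and 1 lower. Pf4 (a platelet and macrophage chemokine) was at 10.11 in brain, 9.70 in liver, 14.39 in gastrocnemius and 14.37 in fat, and F13a1 (a clotting factor subunit) at 8.15, 8.28, 11.82 and 13.38. Lyve1 (a hyaluronan receptor) was at 8.51 in brain, 13.15 in liver, 13.19 in gastrocnemius and 13.64 in fat, and Folr2 (a folate receptor) at 8.10, 11.68, 12.11 and 13.17. Of 15 other macrophage genes tested, 12 were called lower in liver than in fat, 11 higher in fat than in gastrocnemius (14 without B6 gastrocnemius replicate 2) and 8 lower in brain than in fat, against 29.2% of all probes lower in liver, 29.2% higher in fat than gastrocnemius and 30.5% lower in brain than fat. Lyz2 (lysozyme) was 34.1-fold lower in brain than in fat (adjusted p = 2.46e-11), while the complement gene C1qa was 2.03-fold lower (adjusted p = 0.00548). Endothelial cells and platelets also express some genes of the perivascular list, Lyve1, Stab1 and Pf4 among them.

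Among 5 tested genes of alternative activation, the partners of Retnla split by tissue. Clec10a, a galactose lectin, was at 15.00 ± 0.76 (SD, n = 6) in fat, 13.61 ± 0.53 in gastrocnemius, 9.57 ± 0.68 in liver and 9.62 ± 0.64 in brain. Mgl2, its close relative, was at 12.70 in fat and 11.99 in gastrocnemius and was undetected on all liver and brain arrays. Arg1, which in liver is the urea cycle enzyme of hepatocytes, was at 18.86 ± 0.24 there and was detected on 4 of 6 fat arrays and 1 of 6 gastrocnemius arrays. Stat6, which carries the interleukin 4 signal, was at 11.81 in liver and 11.68 in fat (difference 0.10, adjusted p = 0.803), 1.28 log2 units above gastrocnemius in fat (adjusted p = 0.00104). Its receptor chain Il4ra was at 12.48 in liver and 12.21 in fat (adjusted p = 0.268). Missing the threshold does not show that the Stat6 and Il4ra levels of liver and fat are alike. Whether either gene bears on Retnla, which was 212-fold lower in liver than in fat, was not tested.

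Of the resistin family, to which Retnla belongs, both genes tested (Retn and Retnlg) were called higher in fat than in liver, brain or gastrocnemius. Of all probes, 29.2%, 30.5% and 29.2% were called higher in fat in these pairs. Without B6 gastrocnemius replicate 2 the count in fat against gastrocnemius was 1. Retnlg, a relative expressed in neutrophils, was at 13.40 ± 1.33 (SD, n = 6) in fat and 11.93 ± 0.44 in gastrocnemius and was detected on 1 of 6 liver arrays. Retn (resistin, an adipocyte hormone in mice) was detected on all 6 fat arrays at 10.47 ± 0.64 and on no gastrocnemius or brain array. Retn passed the detection filter through fat alone, which favours a higher level there, while Retnlg also passed it in gastrocnemius and brain. Retnlb was detected on 0 of 6 fat arrays and passed the filter in no tissue. Of genes that act with the members, Hp (haptoglobin, carrier of the haemoglobin that Cd163 takes up) was at 20.20 in liver and 18.50 in fat, Lbp, which brings lipopolysaccharide to Cd14, was at 16.67 in liver and 15.70 in fat, and Ly96, part of the lipopolysaccharide receptor with Cd14, was at 13.92 in fat and 11.04 in brain. Ccr2, the receptor of Ccl2 on monocytes, was detected on all 6 fat arrays and was 10.4-fold higher there than in liver (adjusted p = 2.18e-05).

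**Figure D2:**
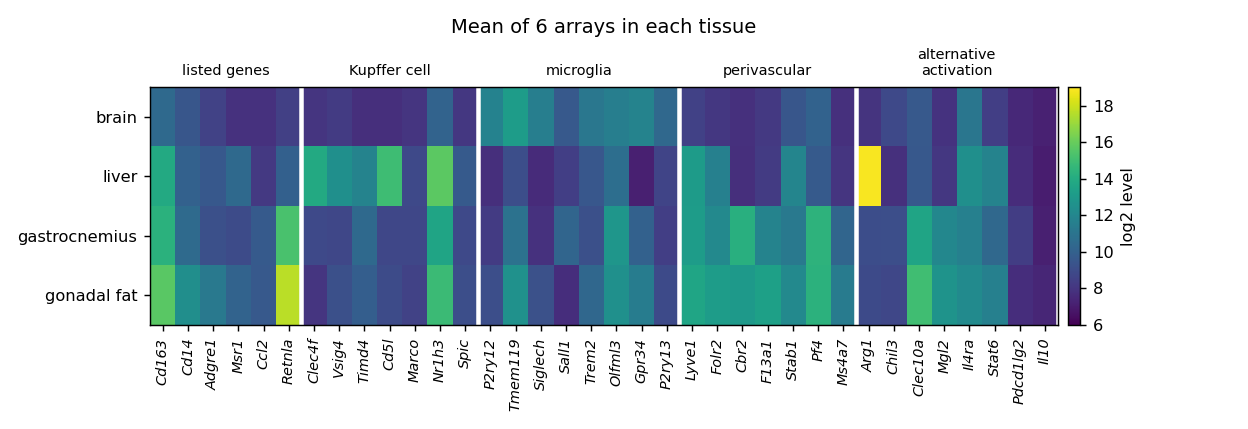
Mean log2 level over 6 arrays (colour) of the 6 listed genes and of genes of Kupffer cells, microglia, perivascular macrophages and alternative activation (x axis) in each tissue (y axis). Kupffer cell genes such as Cd5l (14.97) are bright in liver, and Clec10a follows Retnla in gonadal fat and gastrocnemius. The microglial gene Tmem119 is bright in brain (13.20) and also in gonadal fat (12.56).

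Compared over the 24 arrays with 11275 named genes, each member had its own nearest neighbours. The nearest to Retnla were Hoxa5 (Pearson r = 0.978), Adamts5 (0.977) and Clec10a (0.969), and the nearest to Cd163 were Slc43a3 (0.963), Aifm2 (0.952) and Ginm1 (0.950). Cd14 went with Msn (0.945), Postn (0.929) and Itih5 (0.928), and Msr1 with Apobec1 (0.900), S100a10 (0.863) and Ccl9 (0.861). Adgre1 reached 0.877 with Nedd4 and Ccl2 reached 0.838 with Alox5ap. These values describe arrays that fall into 4 tissues, so they largely restate tissue order and carry no p.

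Between the strains no member passed the test in any tissue. No probe was called in brain (0.00% of 16908), liver (0.00% of 13956), gonadal fat (0.00% of 17624) or gastrocnemius (0.00% of 13252) by limma at an adjusted p of 0.05, where 1632, 456, 609 and 373 probes had an unadjusted p under 0.05. Of the members, 3 passed the detection filter in brain, 5 in liver, 6 in fat and 3 in gastrocnemius. Strain differences are congenic minus B6 from arrays normalized within the tissue, so they differ slightly from the levels above.

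Members whose strains did not overlap were found in brain alone, for Retnla and Cd163. Retnla was detected on all 3 B6 brain arrays with S/N of 4.0 to 8.9 and on none of the 3 congenic arrays (S/N 0.1 to 2.3). Congenic brain was an estimated 4.65-fold lower (log2 difference -2.22 ± 0.64 SE, 95% interval -3.61 to -0.84, limma adjusted p = 0.48). Retnla passed the detection filter in brain through its 3 B6 arrays alone. That favours a difference in this direction, so its lack of overlap is not independent of the filter. Cd163 had a raw Signal of 1453 to 2299 on congenic and 3392 to 4673 on B6 arrays (-1.06 ± 0.26, 95% interval -1.63 to -0.49, limma adjusted p = 0.48). Strains did not overlap for 15.4% of the probes tested in brain, 6.96% in liver, 8.10% in fat and 7.76% in gastrocnemius. The additional congenic brain array read 8.86 for Retnla with S/N of 4.2, so it was detected there. Its title and that of congenic replicate 4 share an identifier, so the arrays may come from the same mouse. On the same scale replicate 4 read 8.06 for Retnla. With the additional array added as a separate mouse, the differences were -1.85 for Retnla and -0.87 for Cd163 (limma adjusted p = 0.395 for both). Cd14 differed by -0.05 (95% interval -0.99 to 0.89).

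Marker lists of other cells were set beside these values, and none of their genes passed the test in brain. Of 8 granulocyte genes with a probe, 5 were tested, and all 5 were lower in congenic brain (median log2 difference -1.88, beside -0.035 over all probes tested). Among them S100a8 was at -3.55 ± 0.82 (SE, limma adjusted p = 0.48) and S100a9 at -2.91 ± 0.65 (adjusted p = 0.48). The detection filter admits a gene detected on the 3 B6 arrays alone, which favours lower congenic values in such a count. The summed level of the list was 11.93 to 12.51 on congenic and 12.54 to 15.72 on B6 brain arrays, and of its genes Elane was detected on no brain array. Retnlg differed by -2.95 (adjusted p = 0.48), with overlapping arrays. Of 6 fibroblast genes, 5 were lower in congenic brain, with summed levels of 14.29 to 15.20 on congenic and 14.91 to 15.67 on B6 arrays. The summed level of 3 erythroid genes, of which Epb42 was detected on no brain array, was 18.56 to 20.18 on congenic and 17.85 to 19.62 on B6 arrays. The 2 erythroid genes tested were higher in congenic brain (median 0.45). Microglial genes had a median difference of -0.16 over 8 genes. The part of these cells in the Retnla and Cd163 values was not tested.

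In gonadal fat 5 of the 6 members had a higher congenic mean, none past the test. The differences were 0.75 ± 0.32 (SE) for Cd163 (95% interval 0.00088 to 1.51), 1.28 ± 0.64 for Ccl2, 1.02 ± 0.49 for Msr1, 0.84 ± 0.56 for Retnla, 0.10 ± 0.38 for Cd14 and -0.02 ± 0.40 for Adgre1, with adjusted p of 0.909 to 0.997. Congenic replicates 1 and 3 were the highest fat arrays for Cd163, Msr1, Ccl2, Retnla and Cd14, and congenic replicate 2 lay within the B6 range for Cd163, Msr1, Ccl2 and Retnla and below it for Cd14. The same replicates split by other tissue content. The summed level of 7 epididymal genes, all detected in fat, was 14.07 and 19.26 on congenic replicates 1 and 3 and 22.20 on replicate 2, against 21.28 to 22.19 on B6 arrays, and 3 erythroid genes (Epb42 undetected in fat) summed to 19.70, 20.06 and 17.85 on congenic replicates 1, 3 and 2 against 18.17 to 18.92 on B6 arrays. Their part in the member values was not tested. Without congenic replicate 2 all 6 members were higher, with a median of 1.23 and adjusted p of 0.0681 for Cd163, 0.0827 for Msr1 and 0.155 for Retnla, while 1.63% of all probes were then called. Among the 7 epididymal genes, 4 were then called lower in congenic fat (median log2 difference -5.13). Without congenic replicate 1 the median was 0.45, and 4 of 6 were higher.

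In liver Cd163 was 0.73 ± 0.33 (SE) higher in congenic mice (limma adjusted p = 1), with overlapping arrays. Cd14 (0.64), Msr1 (0.21) and Retnla (0.33) also had a higher congenic mean and Adgre1 a lower one (-0.62), none of them called. All 9 tested genes of the other macrophage list had a higher congenic mean (median 0.36), but congenic replicate 2, the array with pancreatic transcripts, was the highest liver for 13 of 14 genes. Without it 4 were higher and 4 lower, with a median of 0.06 over 8 tested genes, and of the 5 members tested 2 were higher and 3 lower, with Cd163 at 0.59, Retnla at -0.15 and Msr1 at -0.21.

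In gastrocnemius Retnla was 0.94 ± 0.34 (SE) higher in congenic mice (95% interval 0.17 to 1.70, limma adjusted p = 0.996), and the lowest congenic array (15.17) lay under the highest B6 array (15.44). The summed level of 3 adipocyte genes, each detected on some gastrocnemius array, was 11.83 to 13.65 on congenic and 9.91 to 11.01 on B6 arrays, without overlap. Both adipocyte genes tested were higher in congenic muscle, Cidec by 2.48 and Plin1 by 1.57 (adjusted p = 0.996 for each), and their part in the Retnla value was not tested. Cd163 differed by 0.47 ± 0.38 and Cd14 by -0.06 ± 0.54. The 9 tested genes of the other macrophage list were all lower in congenic muscle (median -0.36). That direction rested on B6 replicate 2, since without it all 7 genes tested were higher in congenic mice (median 0.61), as were all 3 tested members.

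Over the 4 tissues the average strain difference was 0.24 ± 0.16 (SE) for Cd163, 0.19 ± 0.23 for Cd14 and 0.07 ± 0.24 for Retnla, and no member was called, like 0.00% of all 21516 probes (1425 with an unadjusted p under 0.05). Whether the strain difference varied with tissue was tested by the interaction, which called 0.00% of probes (1099 unadjusted). By limma, Retnla (F = 7.31, adjusted p = 0.869) and Cd163 (F = 6.26, adjusted p = 0.871) were lower in congenic brain and higher in the congenic mean of the other tissues, but did not pass the adjustment. Without congenic fat replicate 2 both were called (adjusted p = 0.0192 and 0.0308), among 433 called of all 21200 probes then tested. The congenic fat arrays then left were those of lowest epididymal level, and the part of that tissue in these calls was not tested. The other 4 members had adjusted interaction p-values of 0.988 to 0.999.

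**Figure D3:**
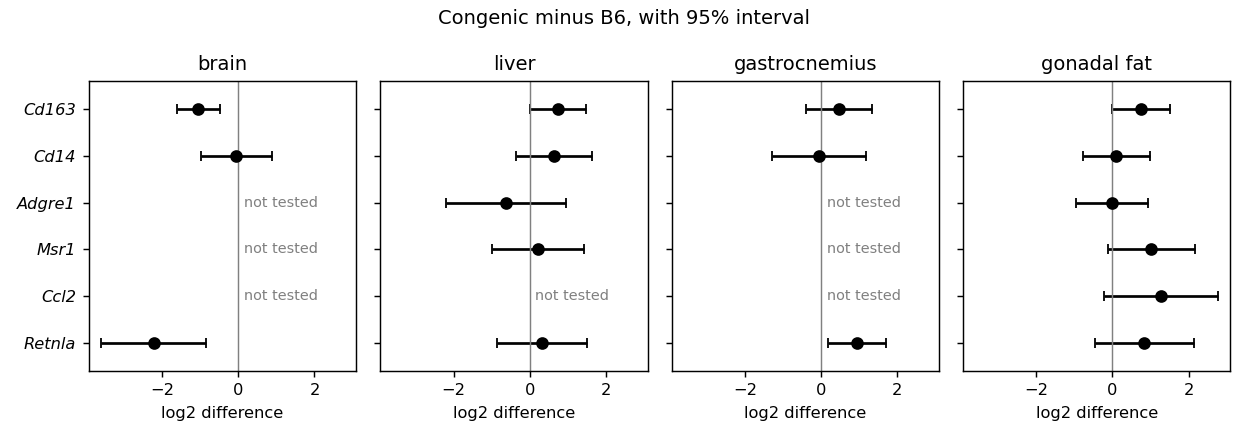
Congenic minus B6 log2 difference (x axis) of each macrophage gene (y axis) in 4 tissues, with points for the limma estimate and bars for its 95% interval from 3 arrays of each strain. Cd163 and Retnla lie to the left of 0 in brain (-1.06 and -2.22) and to the right in the other tissues, and genes under the detection filter are marked as not tested.

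B6 gastrocnemius replicate 2 stood apart for some of these genes and not for others. Its Ccl2 Signal was 20138 with S/N of 66.3, while the other 5 gastrocnemius arrays had a Signal of 183 to 622 and S/N from -2.4 to 3.6. Of 14371 probes detected on this array, Ccl2 ranked 5 by its gap to the next gastrocnemius array (4.69 log2 units) and Msr1 ranked 41 (2.94). Cd14 lay 0.88 above the next array and Adgre1 0.59. Cd163 lay 0.06 above the next array, and Retnla, at 14.63, lay below 4 of the other 5. So the array had the highest level of 5 of the 6 members but not of Retnla.

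Other genes that were high on the same array were picked out after their values were seen. Trem2, a lipid receptor of phagocytes, lay 4.09 above the next array, Chil3 (a chitinase-like protein of activated macrophages) 3.95, Cd84 3.56, Arg1 2.78, Ccr2 2.71, the chemokine gene Ccl7 2.68 and Gpnmb 2.56. Of 16 other macrophage genes with a probe, 14 were highest on this array, against 20.6% of 20884 probes and a range of 13.3% to 20.6% over the 6 gastrocnemius arrays. The matrix genes Postn and Col3a1 lay 3.79 and 2.04 above the next array, and 5 of 6 fibroblast genes were highest there. Myofibre genes were not apart, with Ckm (creatine kinase) 0.04 above the median of the other arrays. Of the 8 granulocyte genes, 1 was highest there. Of 13 genes of an inflammatory list, 7, Tnf and Il6 among them, were detected on no gastrocnemius array. Cxcl2 (1.13 above the next array), Saa3 (0.65) and Ccl7 were detected on this array alone, while Ccl5, Cxcl10 and Ccl8 were not highest there. The array was not unusual in the number of such gaps, with 1.19% of its detected probes more than 2 log2 units above all the others, against 0.378% to 2.13% on the other gastrocnemius arrays.

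The same animal also gave a fat array. On that array, B6 fat replicate 2, Ccl2 was at 8.60 and not detected (S/N 2.8), Msr1 was at 9.42, the lowest of the 6 fat arrays, and Retnla at 16.59, also the lowest. Congenic animals 407 and 409 gave both fat and gastrocnemius, and Retnla lay 1.44 above the fat mean and 0.65 above the gastrocnemius mean in the first and 0.65 below and 0.70 above in the second. Each such animal is a single observation, and no test was made.

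**Figure D4:**
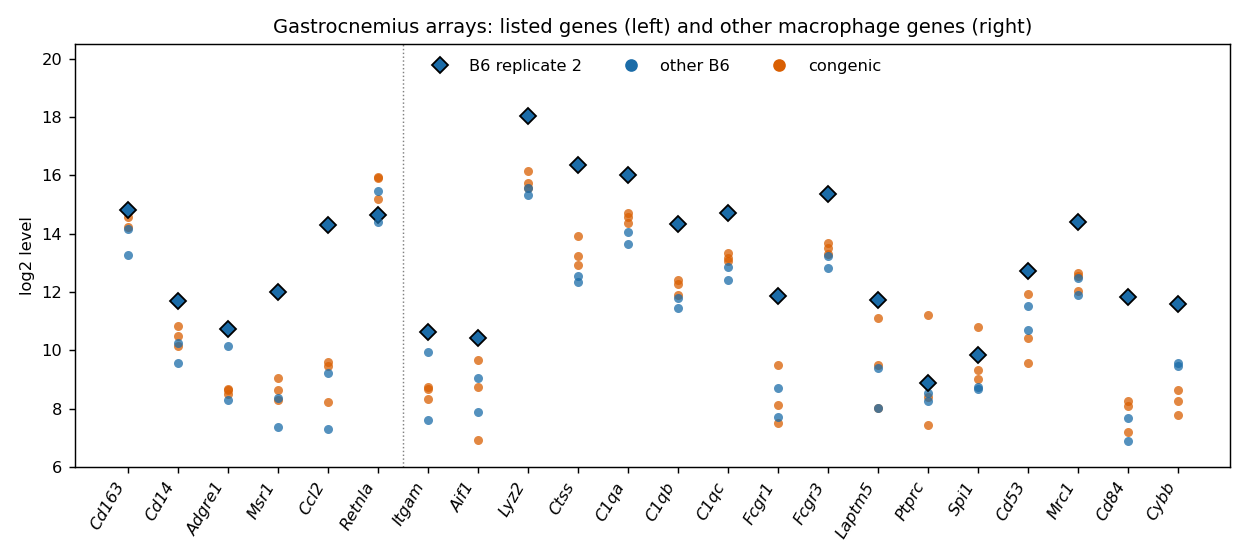
Log2 level (y axis) of the 6 listed genes and 16 other macrophage genes (x axis) on the 6 gastrocnemius arrays, with B6 replicate 2 as a diamond, other B6 arrays in blue and congenic arrays in orange. The diamond is far above the others for Ccl2 (14.28) and Msr1 (11.99), close to them for Cd163 (14.81) and among them for Retnla (14.63).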

How the data were processed

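Per the labels' protocols, RNA extracted with TRIzol was amplified to digoxigenin-labelled cRNA and read on 1-colour Applied Biosystems arrays. The authors deposited, per the file headers, a Signal (an intensity, linear) and a signal to noise score for each probe, and a matrix of log2 values. Those log2 values equal log2 of the deposited Signal plus a constant for each array, and are blank where S/N is under 3. The sources used here do not name the software that made them.

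Signal was corrected with normexp (offset 50), log2 transformed and quantile normalized with limma 3.58.1 in R 4.3.3, within a tissue for strain tests and over 24 arrays for levels and tissue tests. Probes with S/N of at least 3 on 3 or more arrays of a tissue were tested (lmFit, eBayes with trend, Benjamini-Hochberg, threshold 0.05). In the fit of 24 arrays the animal was a random block (correlation -0.0804), its number being taken from the titles of liver, fat and muscle samples, so fitted differences can depart slightly from differences of means. A list's summed level is log2 of the sum of its normalized values. The number of arrays limits the precision, and p-values measure the spread between these few mice. The members and lists were chosen with earlier results of these data known. List genes named are the 2 to 4 of highest mean in the tissue described, and others named, such as Ccr2, Retnlb and tissue markers, were picked after their values were seen. Alternatives were background correction, normalization, filter, trend, block, deposited values, single strains and each array left out, and leaving out arrays with foreign transcripts was added after seeing the data.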

Additional observations from a re-analysis of the deposited data

How the results depend on the processing

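No member was called between strains in any single tissue under any alternative run. With the additional congenic brain array in place of number 4, 3 brain probes were called. The interaction called 1 probe without background correction, without the replicate block, with detection on all arrays, or among probes passing in every tissue. With the deposited log2 values, where fewer probes have values, 8216 were called for brain against liver, 8284 for brain against gastrocnemius, 6872 for liver against fat and 6733 for liver against gastrocnemius, and with congenic arrays only, 6097 for liver against fat and 6421 for fat against gastrocnemius. Leaving out single arrays gave 0 to 216 calls for the average strain effect, 0 to 433 for the interaction, 0 to 2 in brain and 0 to 275 in fat, the largest counts without congenic fat replicate 2 except in brain.

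Directions turned only for members not called: Adgre1 on average to 0.079 (median scaling), in fat to 0.026 (deposited values), for brain minus liver to 0.036 and brain minus gastrocnemius to 0.68 (congenic only), Ccl2 for fat minus gastrocnemius to 1.08 and Msr1 for liver minus fat to -0.12 (congenic only). The cause was not tested. Without the replicate block, Ccl2 for brain minus fat was -1.75 and no longer called (adjusted p = 0.0569), the one member call the block changed. No paired analysis was possible between strains because each animal is of 1 strain. With single arrays left out, values that changed sign ran, on average over tissues, from -0.29 to 0.10 for Adgre1, -0.64 to 0.25 for Ccl2, -0.050 to 0.55 for Msr1 and -0.071 to 0.21 for Retnla. They ran from -0.37 to 0.33 for Cd14 in brain, -0.33 to 0.28 for Adgre1 and -0.16 to 0.48 for Cd14 in fat, -0.49 to 0.52 for Cd14 in gastrocnemius, and in liver from -1.22 to 0.019 for Adgre1, -0.21 to 0.74 for Msr1 and -0.15 to 0.69 for Retnla. Tissue differences ran from -0.64 to 0.069 for Ccl2 (brain minus liver), -0.78 to 0.90 for Ccl2 (fat minus gastrocnemius) and -0.080 to 0.45 for Msr1 (liver minus fat). Each gene had 1 probe, so no other probe of a gene could be tried. Low signal limits Ccl2, Msr1 and Adgre1, which fell under the detection minimum on many arrays.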
